A study of Mus musculus with 11 samples.

Results

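Transcript levels of 6 genes of the thick ascending limb, Umod, Slc12a1, Kcnj1, Bsnd, Egf and Ptger3, were followed across 11 Affymetrix arrays of mouse kidney at embryonic day 17. They were chosen by name as products of this nephron segment, with earlier results of these data known, and all 6 were among the 18193 genes with a value. The arrays compared kidneys homozygous for a change of Robo2, the receptor for Slit guidance ligands that restricts ureteric bud outgrowth in the mouse, with wild-type kidneys. The groups were 3 homozygous arrays titled R2NB (replicates 3, 4 and 5), 1 homozygous array titled R2E17 (replicate 6), 1 wild-type array titled R2E17 (replicate 3), 3 homozygous arrays titled E17R2 (replicates 2, 8 and 9, called MU2, MU8 and MU9) and 3 wild-type arrays titled E17R2 (replicates 1, 3 and 7). All 11 carried the label E17 kidney. No source used here gives the Robo2 allele, the strain or the meaning of NB. Whether each array came from its own embryo is not stated either, so the p-values cover the spread between arrays, which may be technical. Other free text on the samples spoke of human brain, against the organism, source and tissue labels, which were followed.

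The thick ascending limb is the water-tight part of the loop of Henle that reabsorbs sodium chloride and so builds the medullary concentration gradient. Its apical cotransporter, encoded by Slc12a1, takes up sodium, potassium and chloride together. The potassium channel encoded by Kcnj1 returns potassium to the lumen, and basolateral chloride channels that need the Bsnd product barttin let chloride leave the cell. Inherited loss of any of these 3 genes causes Bartter syndrome in humans. The segment also secretes uromodulin, the most abundant protein of normal urine, and is a source of epidermal growth factor in the kidney. The EP3 receptor encoded by Ptger3 lets prostaglandin E2 dampen salt transport there. In the mouse these nephron segments differentiate before birth, in the deeper and older nephrons first.

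The promoters of Umod and Slc12a1 are shown because Umod differed most of the 6 genes between the arrays and Slc12a1, the cotransporter that defines the segment, varied with it. RefSeq promoter windows (assembly GRCm38.p6, 250 bases before to 50 after each start site) were found for 5 of the 6 genes. The Umod sequence lies on the minus strand of chr7:119479263-119479512 and the Slc12a1 sequence on the plus strand of chr2:125152350-125152599, each being the 250 bases before the start site, written 5′ to 3′ in lower case, with no part marked.
Umod: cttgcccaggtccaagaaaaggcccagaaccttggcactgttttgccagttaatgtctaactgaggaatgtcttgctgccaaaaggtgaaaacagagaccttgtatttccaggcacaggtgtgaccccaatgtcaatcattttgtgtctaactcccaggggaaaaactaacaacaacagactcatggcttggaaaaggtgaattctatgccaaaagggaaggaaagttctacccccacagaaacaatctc
Slc12a1: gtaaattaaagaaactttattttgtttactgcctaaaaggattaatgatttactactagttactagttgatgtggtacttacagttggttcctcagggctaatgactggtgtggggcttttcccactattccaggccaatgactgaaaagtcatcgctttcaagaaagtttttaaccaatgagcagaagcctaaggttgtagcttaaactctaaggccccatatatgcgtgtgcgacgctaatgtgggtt
Both strands of the windows were searched for AAGGTCA, the site of oestrogen-related receptors, and for TATAAA, the TATA box. Neither was found in any window of these genes, while AAGGTCA stood in 4.72% and TATAAA in 13.6% of 32851 windows of the same length. The absence of these letters from a window does not show that a factor does not act there.

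The deposited values were linear intensities made with RMA, and log2 of them is used here. The R2E17 and R2NB arrays had median intensities of 47.1 to 53.4 and the E17R2 arrays of 23.4 to 24.6. From these medians it was inferred that these title families had been normalized apart, and all later wording on normalization rests on this inference. Between the families, values are therefore given as log2 intensity minus the median of all genes on the same array, called the centred level. Robo2 itself, read by 1 dim probe set whose place relative to the change is not known, was at an intensity of 4.08, 5.17 and 5.03 on the homozygous E17R2 arrays MU2, MU8 and MU9, against 8.75, 12.8 and 8.93 on the wild-type ones. In the other family it was at 9.72, 14.5 and 15.9 on the R2NB arrays and 10.4 on the homozygous R2E17 array, against 15.6 on the wild-type R2E17 array. No wild-type array was titled R2NB. R2NB replicate 5, labelled homozygous, was not below the wild-type R2E17 array in intensity. Its centred level was −3.52, against −3.44 there. The array MU9 stood apart in smooth muscle genes. The summed intensity of 10 smooth muscle markers was 3769 on MU2, 4378 on MU8 and 36090 on MU9, against 4724 to 5154 on the wild-type E17R2 arrays, and results are given with and without MU9. The wild-type R2E17 array had a 3′ minus 5′ difference of 0.70 log2 units at the Gapdh control probe sets, against −0.013 to 0.22 on the other arrays, a measure of RNA quality. Brain markers were low on average on every array, the 8 genes averaging −3.22 to −1.91 log2 units relative to the array median. Among them, Mbp lay above the array median on every array. Syt1 did so on some arrays, with 8.53 log2 on R2NB replicate 5 against a median of 7.51.

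**Figure D1:**
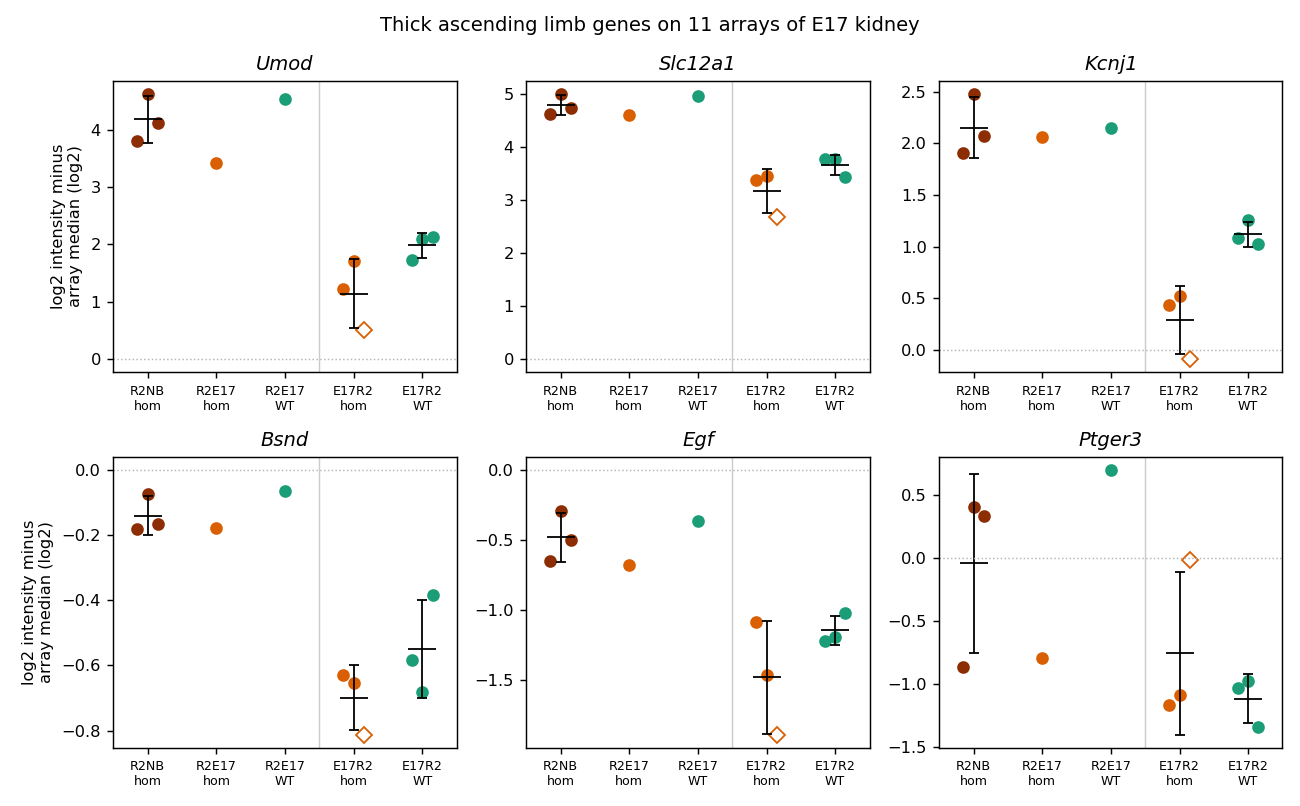
Centred level (log2 intensity minus the array median) of the 6 genes on each array, in 5 groups. Points are arrays, horizontal bars and whiskers are the mean and SD of groups of 3, and the open diamond is MU9. The vertical line divides the title families, which were taken as normalized apart. Umod, Slc12a1, Kcnj1, Bsnd and Egf lie higher on every R2E17 and R2NB array than on any E17R2 array, and Ptger3 does not.

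Umod encodes uromodulin, a glycoprotein that the limb cells release into the urine. Its centred level was 3.81, 4.63 and 4.13 on the R2NB arrays, 3.42 on the homozygous R2E17 array and 4.54 on the wild-type R2E17 array. On the E17R2 arrays it was 1.22, 1.70 and 0.50 in homozygous kidneys, against 1.73, 2.09 and 2.13 in wild-type kidneys. Within E17R2 the groups did not overlap, but MU8 lay just under the lowest wild-type array, and MU9 lay far under all others. The order of group means was wild-type R2E17, R2NB, homozygous R2E17, wild-type E17R2 and homozygous E17R2, and the first pair did not differ beyond its spread, since the wild-type R2E17 array lay within the R2NB range of 3.81 to 4.63. The homozygous R2E17 array lay below that range and above all E17R2 arrays. In the deposited unit, Umod ran from 106.8 on MU9 to 4428 on R2NB replicate 4.

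The first comparison set homozygous against wild-type kidneys within E17R2 (3 against 3), where all arrays were normalized together. Umod and Kcnj1 had the lowest homozygous values of the 6 genes relative to wild-type, but no gene of the genome-wide fit passed. Umod averaged 7.41 ± 0.64 log2 in homozygous kidneys and 8.29 ± 0.24 in wild-type kidneys (SD, n = 3 each), a difference of −0.88 ± 0.31 (SE), or a ratio of 0.544. In limma, with Benjamini-Hochberg adjustment over all genes, it had an unadjusted p of 0.0273 and an adjusted p of 0.840. Of 18193 genes, 0 (0%) passed an adjusted p of 0.05, and 1019 (5.6%) had an unadjusted p under that level, 560 of them (3.08%) lower in homozygous kidneys. Among the 6 genes, 2 (Umod and Kcnj1) had such an unadjusted p, and 0 passed after adjustment. Without MU9 the Umod difference was −0.54 ± 0.20 with an adjusted p of 0.852, so that MU9 alone moved it by over 1.5 times.

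Slc12a1, Kcnj1 and Bsnd carry the salt transport for which the segment is known. Slc12a1, whose product loop diuretics block, was at 9.66, 9.74 and 8.92 log2 on the homozygous arrays MU2, MU8 and MU9, against 10.05, 10.10 and 9.73 on the wild-type arrays. MU8 lay at the level of the lowest wild-type array, so the groups overlapped, and MU9 was again the lowest of the 6. The difference of −0.52 ± 0.23 (adjusted p = 0.840, limma) became −0.26 ± 0.13 without MU9 (adjusted p = 0.925).

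Kcnj1, the apical potassium channel ROMK, was at 6.72, 6.82 and 6.15 log2 on the homozygous arrays, against 7.36, 7.60 and 7.32 on the wild-type arrays. All 3 homozygous arrays were lower than all 3 wild-type arrays, with a clear gap between the groups. The difference was −0.86 ± 0.19, a ratio of 0.549, with an unadjusted p of 0.00284 and an adjusted p of 0.840 in limma. Without MU9 it was −0.66 ± 0.11 (unadjusted p 0.00137 and adjusted p 0.819), so MU9 moved it less than it moved Umod or Slc12a1. The value rests on the brighter of its 2 probe sets, the dim one giving 0.047 ± 0.106 and the mean of both −0.41 ± 0.14 (adjusted p = 0.873).

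Bsnd, the chloride channel subunit barttin, was at 5.65, 5.64 and 5.43 log2 on the homozygous arrays, against 5.70, 5.66 and 5.92 on the wild-type arrays. The groups were separated by less than 0.1 log2 units, and the difference was −0.18 ± 0.11 (adjusted p = 0.840, limma), or −0.11 ± 0.10 without MU9 (adjusted p = 0.991). With Umod and Kcnj1, it made 3 of 6 genes whose homozygous arrays all lay below the wild-type ones in log2 intensity, against 7.24% of all genes. For Bsnd this depended on the scale. On the centred level its groups overlapped, wild-type replicate 3 at −0.68 lying below MU2 at −0.63 and MU8 at −0.65.

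Egf encodes the precursor of epidermal growth factor, which in the kidney acts on magnesium uptake further along the nephron. It was at 5.20, 4.84 and 4.35 log2 on the homozygous arrays, against 5.06, 5.15 and 5.28 on the wild-type arrays. MU2 reached into the wild-type range and MU9 was the lowest array. The difference was −0.37 ± 0.21 (adjusted p = 0.840, limma) and −0.15 ± 0.14 without MU9 (adjusted p = 0.991).

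Ptger3, the EP3 prostaglandin receptor, was at 5.12, 5.21 and 6.22 log2 on the homozygous arrays, against 5.25, 5.37 and 4.96 on the wild-type arrays. It was the one gene of the 6 that was highest on MU9, where smooth muscle markers were also highest. EP3 receptors are also found in smooth muscle, and the part of this tissue in the Ptger3 value was not tested. The difference of 0.32 ± 0.30 (adjusted p = 0.861, limma) was −0.030 ± 0.14 without MU9, which reverses its sign.

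Together, 5 of 6 differences were below 0, against 52.9% of all genes, and the median of the 6 was −0.45, against −0.0092 over all genes. Without MU9, 6 of 6 were below 0, against 49.6% of all genes, with a median of −0.20 against 0.0014. MU9 was the lowest of the 6 arrays for 5 of the 6 genes. Markers of other nephron segments lay in the same direction. The proximal tubule list, 10 of 10 genes measured, summed to 3098, 3398 and 2111 on the homozygous arrays MU2, MU8 and MU9, against 4065 to 4771 on the wild-type arrays. The podocyte list, 6 of 8 measured, summed to 5719, 5513 and 4235, against 6090 to 6449. The distal tubule list, 7 of 8 measured, summed to 2682, 2522 and 1689, against 3024 to 3114. Without MU9 the median differences of these 3 lists were −0.45, −0.26 and −0.16, so these epithelial lists lay lower as well. Lower values were not limited to them. The median was −0.23 for endothelium (−0.14 without MU9), −0.43 for renal vesicle to S-shaped body (−0.18) and −0.34 for liver (−0.17). For stroma it was 0.13 with and without MU9. The collecting duct list, 9 of 10 measured, summed to 1839, 1968 and 1280 on the homozygous arrays, against 1881, 1997 and 2339 on the wild-type arrays, which overlap, and without MU9 it had 6 of 9 genes below 0 and a median of −0.12. The adrenal cortex list, 7 of 8 measured, summed to 1029, 216.2 and 171.5 on the homozygous arrays, against 3427, 2874 and 224.9, with 7 of 7 genes below 0 and a median of −1.27 (−1.20 without MU9). Xist, the transcript of the inactive X chromosome, was at 4.72, 11.91 and 11.78 log2 on MU2, MU8 and MU9. On wild-type E17R2 replicates 1, 3 and 7 it was at 11.8, 11.91 and 4.72. The part of these tissues and of embryo sex in the values of the 6 genes was not tested. In bulk kidney, fewer limb cells and less RNA per cell cannot be told apart.

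**Figure D2:**
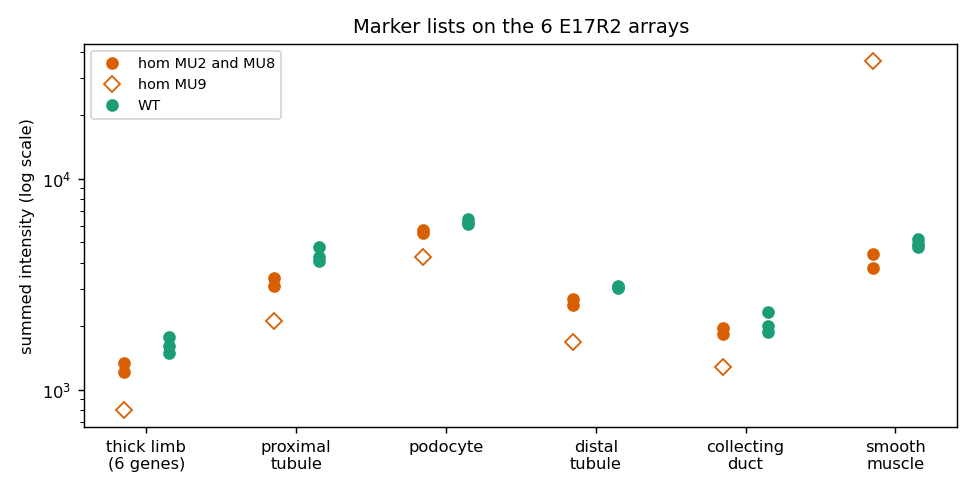
Summed intensity (log scale) of the 6 thick ascending limb genes and of 5 marker lists on the 6 E17R2 arrays. Each point is 1 array, homozygous left of wild-type, with MU9 as the open diamond. MU9 has the lowest sum of every kidney epithelial list and, at 36090, the highest smooth muscle sum.

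The R2E17 pair gave the same genotype comparison with 1 array on each side, so it has no replicate check. Umod was at 10.94 log2 on the homozygous array and 11.95 on the wild-type array, a difference of −1.01. Ptger3 was at 6.73 and 8.10 on the same 2 arrays, a difference of −1.37. These were the only 2 of the 6 genes at least 1 log2 unit lower on the homozygous array, as were 0.693% of all genes. Slc12a1 differed by −0.25, Egf by −0.20, Kcnj1 by 0.025 and Bsnd by 0.0026, and relative to the array medians Kcnj1 and Bsnd turned to −0.091 and −0.11. With the mean of all probe sets, Umod was at −1.20, Slc12a1 at −0.76, Ptger3 at −0.59 and Kcnj1 at 0.33, so that Umod alone lay at least 1 unit lower. In all, 4 of 6 genes lay below 0, against 39.8% of all genes, or 43.9% of the genes whose 2 values differed, since 1708 genes (9.39%) had exactly equal values on these 2 arrays. Other tissues differed in the pair as well. The skeletal muscle list, 6 of 6 measured, summed to 7750 on the homozygous array and 332.3 on the wild-type array, with 6 of 6 genes above 0 and a median of 4.38. The proximal tubule list summed to 26650 and 18860 on the same arrays (9 of 10 above 0, median 0.55), and the stroma list to 18830 and 25520 (6 of 7 below 0, median −0.40). The part of these tissues, and of the 3′ minus 5′ difference of the wild-type array, was not tested.

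Whether the pair and the E17R2 arrays differed in their genotype difference was tested as an interaction over all 11 arrays. For Umod the pair's difference minus that of E17R2 was −0.13 ± 0.64 (adjusted p = 0.979, limma), with an SE close in size to the genotype differences themselves. Without MU9 it was −0.47 ± 0.48 (adjusted p = 0.80), and with array-median centring −0.28. For Slc12a1 it was 0.27 ± 0.44 (adjusted p = 0.900), 0.010 ± 0.27 without MU9 and 0.12 with centring. The largest were Ptger3 at −1.70 ± 0.77 (adjusted p = 0.474) and Kcnj1 at 0.89 ± 0.40 (adjusted p = 0.470). Over all genes, 3 passed (0.0165%), none of them among the 6, while 2015 (11.1%) had an unadjusted p under 0.05. The lack of a call does not show that the pair and the E17R2 arrays responded alike.

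**Figure D3:**
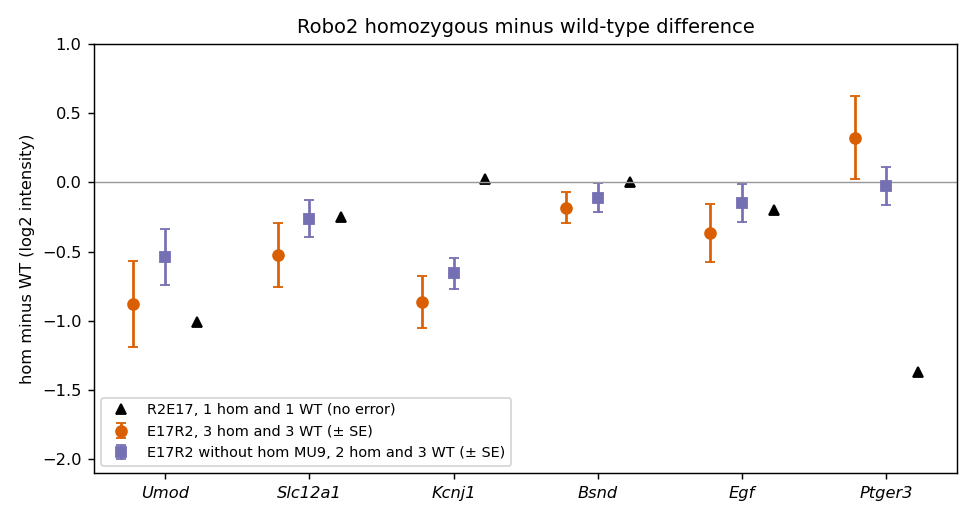
Homozygous minus wild-type difference in log2 intensity for the 6 genes, in E17R2 (circles, ± SE, 3 against 3), in E17R2 without MU9 (squares, ± SE) and in the R2E17 pair (triangles, 1 against 1, no error). Umod is below 0 in all 3, Kcnj1 is near 0 in the pair at 0.025, and Ptger3 lies at 0.32 in E17R2 and −1.37 in the pair.

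The contrast between the title families passed for all 6 genes. Relative to the array medians and with genotype fitted, they were higher on the R2E17 and R2NB arrays than on the E17R2 arrays, against 18.3% of all genes called higher and 41.6% called lower. Umod was 2.76 ± 0.26 log2 units higher, a 6.79-fold difference (adjusted p = 9.50e-06, limma), and ranked 11 from the top of 18193 genes. Kcnj1 was 1.59 ± 0.18 higher, or 3.02-fold (adjusted p = 2.82e-05), and Slc12a1 1.49 ± 0.15 higher, or 2.81-fold (adjusted p = 1.74e-05). The smaller differences were those of Egf (0.90 ± 0.14, 1.86-fold, adjusted p = 2.59e-04) and Bsnd (0.53 ± 0.07, 1.44-fold, adjusted p = 8.63e-05). The median of the 6 was 1.20, against −0.17 over all genes.

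The single arrays showed the same separation. For Slc12a1 the centred level was 4.62, 4.99 and 4.73 on the R2NB arrays, 4.59 and 4.96 on the homozygous and wild-type R2E17 arrays, and between 2.68 and 3.77 on the 6 E17R2 arrays. For Kcnj1 it was 1.91, 2.48 and 2.08 on the R2NB arrays, 2.06 and 2.15 on the homozygous and wild-type R2E17 arrays, and between −0.09 and 1.25 on the E17R2 arrays. Each of these genes thus had a gap between the families, as did Umod, Bsnd and Egf, which made 5 of 6 genes against 12.4% of all genes. Title family and normalization set coincide on all 11 arrays, so they cannot be told apart.

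Ptger3 behaved otherwise. Its centred level was −0.86, 0.40 and 0.33 on the R2NB arrays, −0.79 on the homozygous R2E17 array and 0.69 on the wild-type R2E17 array, against −1.17, −1.09 and −0.02 on the homozygous and −1.03, −0.98 and −1.34 on the wild-type E17R2 arrays. R2NB replicate 3 and the homozygous R2E17 array lay within the E17R2 range, and MU9 lay within the other family's range. The difference of 0.92 ± 0.35 (adjusted p = 0.0432, limma) lost its call when any of 8 of the 11 arrays was left out, and was 0.53 (adjusted p = 0.268) without the wild-type R2E17 array. The values of the other 5 genes stayed past the threshold whichever array was left out, with Umod between 2.54 and 2.93.

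Both genotypes were then taken one at a time, a contrast added after the data had been seen, with the lone R2E17 arrays assumed to vary like the other groups. In homozygous kidneys, R2E17 minus E17R2 was 2.28 ± 0.44 for Umod (adjusted p = 0.00574, limma), 1.77 ± 0.27 for Kcnj1 (0.00241) and 1.43 ± 0.29 for Slc12a1 (0.00731). In wild-type kidneys it was 2.56 ± 0.44 for Umod (adjusted p = 0.00562), 1.03 ± 0.27 for Kcnj1 (0.0241) and 1.31 ± 0.29 for Slc12a1 (0.0141). In homozygous kidneys 5 of 6 genes passed, all but Ptger3 (−0.04 ± 0.56, adjusted p = 0.966), against 8.46% of all genes called higher. In wild-type kidneys 5 of 6 passed, all but Egf (0.78 ± 0.27, adjusted p = 0.0585), against 9.39%. Each of these contrasts has 1 R2E17 array, so its SE comes from the other groups.

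The R2NB arrays, with the same genotype label, were set against each homozygous group. Against the homozygous E17R2 arrays (3 against 3), 5 of 6 genes were higher on the R2NB arrays, against 14.5% of all genes called higher and 37.2% called lower. Umod differed by 3.04 ± 0.31 log2 units (adjusted p = 1.64e-04, limma), Kcnj1 by 1.86 ± 0.19 (1.72e-04) and Slc12a1 by 1.61 ± 0.21 (4.28e-04). Egf differed by 0.996 ± 0.189 (0.00272) and Bsnd by 0.56 ± 0.10 (0.00170), and Ptger3 by 0.71 ± 0.39 (adjusted p = 0.159), which did not pass. Against the single homozygous R2E17 array, whose values were normalized with them, none of the 6 passed, against 2 of all genes (0.011%), and 589 genes (3.24%) had an unadjusted p under 0.05. All 6 values were above 0, where 40.5% of all genes were below 0, with Umod at 0.77 ± 0.44 and Ptger3 at 0.75 ± 0.56, and the other 4 between 0.04 and 0.20. The R2NB arrays also differed from that array in Xist, at 4.73, 4.89 and 4.57 log2 on the R2NB arrays, against 10.83 on the homozygous R2E17 array. The skeletal muscle list summed to 216.9, 205.8 and 8790 on R2NB replicates 3, 4 and 5, and to 7750 on the homozygous R2E17 array. On R2NB replicate 4, the highest for Umod, the liver list summed to 42340 and the adrenal cortex list to 8752. On R2NB replicates 3 and 5 the liver sums were 7049 and 5413 and the adrenal cortex sums 286.9 and 332.4. The part of embryo sex and of these tissues in these values was not tested.

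Other cell types were also compared between the families, where 18.3% of all genes were called higher and 41.6% lower, with a median of −0.17. The proximal tubule list had 9 of 10 genes called higher on the R2E17 and R2NB arrays, with a median of 1.63, and the distal tubule list 6 of 7, with a median of 0.47. Higher calls were not limited to tubules. The endothelium list had 4 of 6 higher and 0 lower (median 0.41), and the podocyte list 3 of 6 higher and 1 lower (0.38). The collecting duct list had 5 of 9 higher and 2 lower (0.93), and the renal vesicle to S-shaped body list 2 of 8 higher and 2 lower (−0.084). The nephron progenitor list had 0 of 7 called higher and 3 lower, with a median of −0.26. Its lower calls were near the share over all genes. The erythroid list, 4 of 6 measured, had 4 of 4 lower and a median of −1.17, with Hbb-y, an embryonic globin gene, at 3.06 to 5.18 log2 on the R2E17 and R2NB arrays and 7.78 to 8.06 on the E17R2 arrays. The stroma list had 0 of 7 higher and 3 lower, with a median of −0.29, and its lower calls were also near that share. The part of these cell types in the values of the 6 limb genes was not tested.

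Ratios to Slc12a1 on the same array do not depend on the centring, and were used to see whether the limb genes differed by unequal amounts between the families. This alternative was also added after the data had been seen, with 5 ratios and 2-sided exact permutation tests of 5 against 6 arrays. The log2 ratio of Umod to Slc12a1 averaged −0.67 ± 0.33 on the R2E17 and R2NB arrays (SD, n = 5) and −1.85 ± 0.34 on the E17R2 arrays (SD, n = 6). The difference was 1.17, with an adjusted exact p of 0.00722, from the smallest p such a test can give (0.00433). The families did not overlap, the homozygous R2E17 array at −1.18 lying next to the highest E17R2 array at −1.31. The ratio of Kcnj1 to Slc12a1 differed by 0.06 (adjusted exact p = 0.593), its arrays being mixed. For Bsnd and Egf the ratio was lower on the R2E17 and R2NB arrays, by −0.88 and −0.56 (adjusted exact p = 0.00722 for each). With the mean of all probe sets in place of the brightest one, the Bsnd value was −0.37 and the Egf value −0.042, with unadjusted exact p of 0.0736 and 0.805, so these 2 rest on the choice of the Slc12a1 probe set. The Ptger3 ratio differed by −0.48 (adjusted exact p = 0.357), and by −0.42 with the mean of all probe sets (unadjusted exact p = 0.0346). Within E17R2, homozygous minus wild-type, the Umod ratio differed by −0.35 (exact p = 0.2) and the Kcnj1 ratio by −0.34 (exact p = 0.1, the smallest that 3 against 3 allow).

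**Figure D4:**
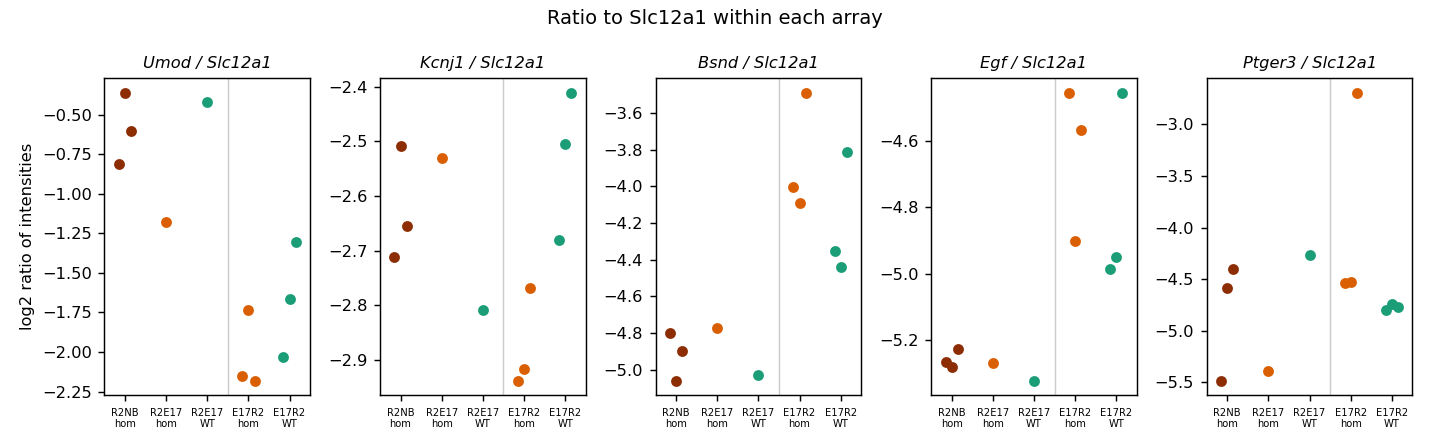
Log2 ratio of each gene's intensity to that of Slc12a1 on the same array, in 5 groups with a separate axis per gene. Points are arrays, and the vertical line divides the title families. The Umod ratio lies between −1.18 and −0.36 on the R2E17 and R2NB arrays and between −2.18 and −1.31 on the E17R2 arrays, and the Kcnj1 ratios of the families are mixed.

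Second probe sets were present for 4 of the 6 genes. That of Umod gave −0.73 ± 0.22 for homozygous minus wild-type in E17R2 (adjusted p = 0.905, limma over probe sets) and 3.19 ± 0.23 between the families (adjusted p = 2.28e-06), close to the main one. The second probe sets of Slc12a1, Kcnj1 and Ptger3 were dim, with mean centred levels of −2.46 or lower in every group. Between the families they gave 0.54 ± 0.25 for Slc12a1 (adjusted p = 0.0865), 0.94 ± 0.14 for Kcnj1 (1.69e-04) and −0.01 ± 0.09 for Ptger3 (0.932). The call for Slc12a1 and Ptger3 thus rests on 1 probe set each.

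Around the 6 genes, 63 of 70 listed genes of the limb and of the pathways of its products were measured. In E17R2, 0 of 63 passed in either direction. Those of the salt transport and claudin lists with the smallest p were Kcnj10, a basolateral potassium channel subunit (−0.53 ± 0.16), Cnnm2, which is needed for magnesium handling (−0.45 ± 0.11), and Cldn16, the cation-selective claudin of the limb (−0.66 ± 0.21). Among regulators and markers they were Sorl1 (−0.33 ± 0.09) and Irx2 (−0.46 ± 0.13), with 12 of 15 values below 0 and a list median of −0.30. Without MU9 that median was −0.095 (13 of 15 below 0), and that of the 13 salt transport genes was −0.068, against −0.17 with it. Sorl1 is a sorting receptor, and Irx2 is a transcription factor of the forming loop of Henle. Of the 8 claudin and magnesium genes, 7 were below 0 in E17R2, where 52.9% of all genes were, with a median of −0.23 (−0.19 without MU9). In the R2E17 pair, 1 array against 1, 1 of the 8 was below 0, where 39.8% of all genes were, and 0 of 8 passed the interaction.

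Between the families, 35 of the 63 were called higher on the R2E17 and R2NB arrays and 13 lower, against 18.3% and 41.6% of all genes. Under quantile normalization 37 were called higher and 8 lower, against 24.2% and 26.1% of all genes, and without centring 62 were called higher and 0 lower, against 91.8% and 0.544%. The median gene was itself 1.19 log2 units higher on the R2E17 and R2NB arrays, and 12 of the 13 lower calls turned to higher without centring, all but Nrg1 (−0.057). Below the array median on every array were 8 of the 13 and 5 of the 35. Of 13 salt transport genes measured, 9 were higher and 3 lower, with a median of 0.30. Kcnj10 (1.56 ± 0.11) and Kcnj16 (1.51 ± 0.15), which form a basolateral potassium channel together, and Slc9a3 (1.53 ± 0.16), the apical sodium-proton exchanger, were highest. Wnk4, a kinase that controls salt cotransporters, was also higher (1.12 ± 0.15), as was Fxyd2, a regulatory subunit of the sodium pump (0.73 ± 0.18). Relative to the array medians, Maged2, whose loss causes a transient antenatal Bartter syndrome in humans, was lower (−0.41 ± 0.08, but 0.77 without centring), as were the kinase gene Oxsr1 (−0.40 ± 0.08, but 0.79) and Kcnma1 (−0.82 ± 0.15, but 0.36), a large-conductance potassium channel that was below the median on all arrays. Of 7 ROMK relatives and regulators, some of which the salt transport list also holds, 6 were higher and 0 lower, with a median of 1.12.

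Between the families, 18.3% of all genes were called higher and 41.6% lower. Among 8 claudin and magnesium genes, 4 were higher and 2 lower. Cldn16 (1.19 ± 0.17), Cldn10 (0.83 ± 0.16) and Cldn19 (0.38 ± 0.08), which form the cation paths of the limb, were higher on the R2E17 and R2NB arrays. Of these, Cldn19 was dim, at a centred level of −2.42 to −1.74. Cldn14, which blocks one of these paths and was also below the median on all arrays, was −0.67 ± 0.07 with centring and 0.52 without it. Among 15 regulators and markers, 10 were higher and 1 lower. They included Sim2 (1.05 ± 0.12), Irx2 (1.03 ± 0.08), Muc1 (0.92 ± 0.13), Esrrg (0.89 ± 0.12), an oestrogen-related receptor, and Tmem207 (1.64 ± 0.15), which was dim, at a centred level of −3.61 to −1.48. Pappa2, a marker of the macula densa at the end of the limb, was 1.36 ± 0.11 higher, and Nos1 and Ptgs2, its other 2 listed markers, did not pass (−0.12 ± 0.12 and 0.69 ± 0.35).

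Of 5 genes of uromodulin processing and relatives, 2 were higher, where 18.3% of all genes were called higher and 41.6% lower. Hpn, the protease hepsin that releases uromodulin from the cell surface, was 1.33 ± 0.20 higher, and the membrane protease gene Tmprss2 was 1.49 ± 0.08 higher. Gp2, the closest relative of Umod, Umodl1 and Cuzd1 were dim, at centred levels of −4.69 to −3.15 on all arrays, so no direction is given for them, their 3 calls as lower being lost under quantile normalization. Among 9 ligands and receptors of the EGF family, 4 were higher and 5 lower. The ligand genes Btc (1.26 ± 0.30) and Hbegf (0.53 ± 0.13) were higher together with Egf. Of the 5 lower calls, those of the ligand genes Nrg1 and Ereg and the receptor gene Erbb4 came from dim values, at centred levels of −5.21 to −2.81. The other 2 were the ligand gene Tgfa (−0.27 ± 0.06, but 0.92 without centring) and the receptor gene Egfr (−0.63 ± 0.17, but 0.55). Of 8 prostaglandin E2 genes, Slco2a1, the prostaglandin transporter (0.76 ± 0.09), and Ptges2, a synthase (0.33 ± 0.09), were higher and the other receptors Ptger1, Ptger2 and Ptger4 did not pass. These 2 higher calls of 8, and the 5 lower calls of 9 in the EGF family, were near the shares over all genes.

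**Figure D5:**
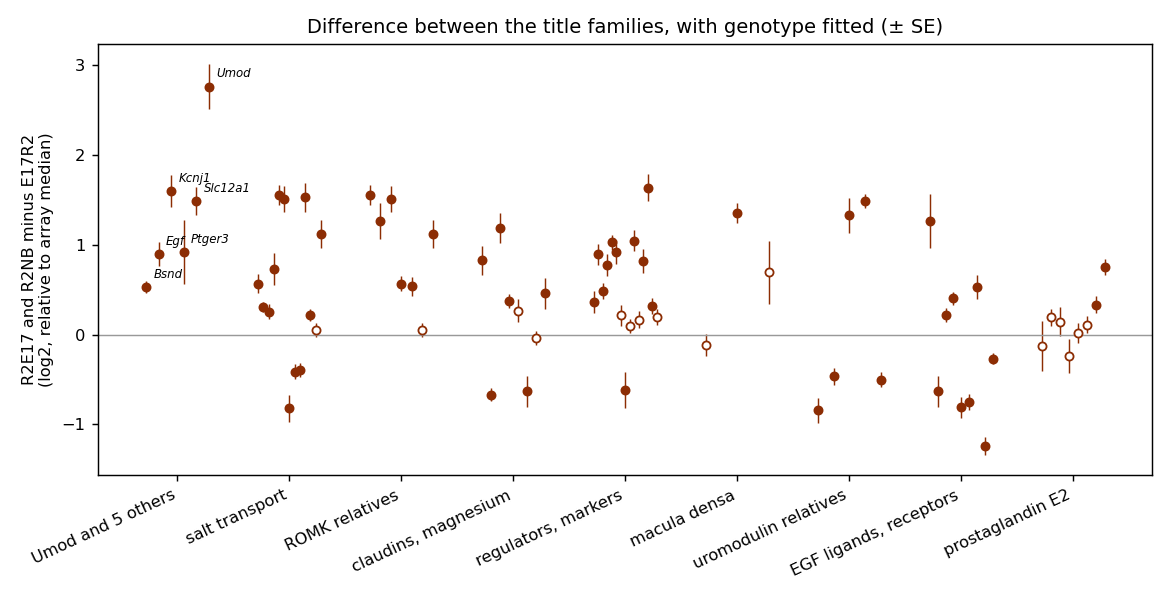
Difference between the R2E17 and R2NB arrays and the E17R2 arrays (log2 relative to the array median, with genotype fitted, ± SE) for the 6 genes and 8 gene lists, some of which share genes. Filled points passed an adjusted p of 0.05 over all genes and open points did not. Umod stands highest at 2.76, and 35 of the 63 genes around the 6 were called higher. Points below 0 are relative to the array median and, except for Nrg1 (−0.057), lie above 0 without centring.

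The genes whose levels followed Umod most closely were ranked by Pearson r over the 11 arrays, after the mean of each title family had been removed, among 9094 genes with a mean level above the array median. These points share the arrays and their composition, MU9 among them, and r is given as a description. The ranking was not repeated without MU9. The highest were Ildr2 (0.956), Mitf (0.951), Synj1 (0.945), Tom1 (0.941), Tspan33 (0.937), Slc12a3 (0.929), Kifc3 (0.928) and Tnfaip2 (0.922). Slc12a3, the thiazide-sensitive cotransporter of the next nephron segment, was also 2.59 log2 units higher on the R2E17 and R2NB arrays. Slc12a1 ranked 73 with 0.861 and Kcnj1 96 with 0.847, while Egf (0.804), Bsnd (0.728) and Ptger3 (0.044), which were too dim for the ranking, were less alike. Umod thus varied with Slc12a1 and Kcnj1 within the families as well as between them. The low r of Ptger3 was taken over both families together. On MU9, Umod was the lowest and Ptger3 the highest of the E17R2 arrays. On the homozygous R2E17 array and R2NB replicate 3, the centred levels of Umod (3.42 and 3.81) and Ptger3 (−0.79 and −0.86) were both lower than on the other arrays of that family.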

How the data were processed

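Biotin-labelled cRNA of 11 kidney samples was hybridised to Affymetrix arrays, per the labels' protocols. The authors deposited RMA output as linear intensity, per the submitters' processing notes, the version and settings being unstated in the sources used here. Values were put on a log2 scale here with no pseudocount. Of 45101 probe sets, 34945 carried exactly 1 gene symbol in the platform annotation, 932 several and 9160 none here, besides 64 controls. The brightest single-symbol probe set by mean log2 stood for its gene, which left 18193 genes. The members and lists were chosen with earlier results of these data known.

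Tests were 2-sided and used lmFit and eBayes of limma 3.58.1 under R 4.3.3, fitted over all genes with Benjamini-Hochberg adjustment and a threshold of 0.05. The fits were tested on simulated data. E17R2 arrays were fitted alone, and the other contrasts over all 11 arrays on log2 minus the array median, since the title families were taken as normalized apart. The exception was the interaction, which used log2 without centring. The number of arrays limits the precision. Alternatives were scaling, probe set choice, dim genes, shared spread and leaving out each array. Ratio tests used SciPy 1.17.1. The named genes were the 6 members, Robo2, list genes past the threshold in a comparison or otherwise up to 3 with the smallest p, the marker lists and the 8 genes most like Umod. Xist, Nos1, Ptgs2, Ptger1, Ptger2 and Ptger4 were named outside this rule, after their values were seen.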

Additional observations from a re-analysis of the deposited data

How the results depend on the processing

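No paired analysis was run, because the homozygous and wild-type E17R2 arrays share no replicate numbers and no pairing between them was known. In E17R2, no member passed under any alternative run, and the number of genes past the threshold was 0 except 1 without wild-type replicate 7 (0 to 1 with 1 array left out). Umod there ran from −1.17 to −0.54 and Kcnj1 from −0.99 to −0.66 with 1 array left out. The Ptger3 difference was −0.030 without MU9 (−0.030 to 0.52 with 1 array left out) and −0.10 with the R2E17 pair added and a series term. In the pair, array medians turned Kcnj1 to −0.091 and Bsnd to −0.11. The interaction of Egf was −0.053 without MU9, and 8 genes passed it with the 8 R2E17 and E17R2 arrays alone and 2 without MU9. Between the families, 10902 genes passed, against 16806 without centring, 5100 after dim genes were removed (only 4 members were then tested) and 10183 to 10869 with 1 array left out, with 5 to 6 of the 6 members. Calls split 24.2% higher and 26.1% lower under quantile normalization, and 91.8% and 0.544% without centring. Ptger3 was 0.53 (adjusted p = 0.337) in homozygous arrays alone and 0.89 (adjusted p = 0.136) without the R2NB arrays. For R2NB minus homozygous E17R2, 9410 genes passed, against 16211 without centring and 7679 to 9335 with 1 R2NB array left out (5 to 6 members). Ptger3 passed there without centring (1.93) and without R2NB replicate 3 (1.12). For R2NB minus homozygous R2E17, 2 genes passed, against 2 to 18 with 1 R2NB array left out, 0 with only the arrays compared and 1 with the mean of probe sets, and Kcnj1 was −0.073 without R2NB replicate 4 (−0.073 to 0.21 with 1 left out). The cause of these changes was not tested.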
